A study of Mus musculus with 36 samples.

Results

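Epcam, Cdh1, Krt8, Krt19, Krt20, Cldn7, Cldn4 and Tspan8 are genes of epithelial adhesion and of the keratin cytoskeleton, and their messages were examined for binding by Ago2, the protein that carries miRNAs to their targets. Every peak of Ago2-bound RNA whose annotated gene is 1 of these 8 was taken, which gave 29 of 7730 peaks and 8 of 3933 genes with a peak. Cdh1 held 9 peaks, Cldn4 7, Epcam and Krt20 4 each, Cldn7 2, and Krt8, Krt19 and Tspan8 1 each. The data come from a Halo-enhanced Ago2 pulldown, a crosslinking and sequencing assay, of colonic tumours of C57BL/6 mice. Each sample was irradiated 3 times with UV light at 400 mJ/cm². All tumours carried 1 Halo-Ago2 allele, which makes Ago2 with a Halo tag by which it can be pulled down, 1 Villin-CreER allele, which drives an inducible Cre in gut epithelium, and 2 floxed Apc alleles. In 6 tumours, called WT here, the K-Ras gene was wild type, and 6 others, called G12D, also carried 1 K-Ras-G12D allele. Tumours were started at 8 to 12 weeks of age with an enema of 200 µl of 4-hydroxytamoxifen at 5 mg/ml, and the lawns of tumour were taken when animals became moribund. The lawns were resected or scraped whole, so they were not sorted for epithelial cells. Nothing in the labels ties a replicate number to a single animal, and the p-values therefore describe the spread among these samples, which may be technical.

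Epithelial cells are held together by cadherins at adherens junctions and sealed by claudins at tight junctions, and keratin filaments give them stiffness. Epcam is a surface glycoprotein that binds and stabilises claudin-7, and Cdh1 (E-cadherin) is the adhesion molecule whose loss marks the change from epithelial to mesenchymal cells. A miRNA guides Ago2 to a message mainly through its seed, bases 2 to 8 from its 5′ end, and binding at a site usually lowers the stability or translation of that message.

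The authors' annotation lists 45 seed sites of 38 miRNA families in 22 of the 29 peaks, and 7 peaks have none. An 8mer pairs with the whole seed and has an A opposite base 1, a 7mer lacks 1 of these features, and a 6mer is shorter. Of the 29 peaks, 15 (51.7%) hold an 8mer or 7mer, against 76.0% of all 7585 annotated peaks, and 5 (17.2%) hold an 8mer, against 35.6%. Of the 29 peaks, 17 lie in 3′ UTRs (58.6%, against 51.9% of all annotated peaks), 8 in other exons, 3 in introns and 1 in a 5′ UTR. Of the 29 peaks, 16 (55.2%) overlap a peak of the authors' WT list, as do 28.1% of all annotated peaks. The mature sequences below belong to the most abundant miRNA of the families with an 8mer or 7mer in the strongest peak of a gene, and of 2 more families whose sites are discussed later. They are from RefSeq (GRCm38.p6), with the seed in capitals.
miR-31-5p (Cldn4, 8mer): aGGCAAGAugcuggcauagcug
miR-423-3p (Cldn4, 7mer): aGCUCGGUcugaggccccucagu
miR-196b-5p (Krt20, 8mer): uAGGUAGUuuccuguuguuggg
miR-33-5p (Krt20, 7mer): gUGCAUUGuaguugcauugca
miR-29a-3p (Tspan8, 8mer): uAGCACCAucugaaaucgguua
miR-34a-5p (Tspan8, 7mer): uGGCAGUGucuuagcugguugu
miR-7a-5p (Krt19, 7mer): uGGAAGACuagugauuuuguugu
miR-18a-3p (Cldn7, 7mer): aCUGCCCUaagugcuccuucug
miR-361-5p (Cdh1, 7mer): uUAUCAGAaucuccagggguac
miR-708-5p (Krt20, a weaker peak, 8mer): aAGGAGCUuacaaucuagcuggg
miR-194-5p (Cdh1, an intron, 7mer): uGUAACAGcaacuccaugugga
The strongest Epcam peak has only 6mers, 1 of them for the miR-15/16 family, and the single Krt8 peak has no annotated site. Some of these seeds are shared: miR-29b and miR-29c carry the seed of miR-29a, miR-196a that of miR-196b, miR-449a that of miR-34a, and miR-28a that of miR-708.

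The mRNA libraries held 30607 to 974013 reads in peaks. WT replicates 5 and 6 stood apart, with 30607 and 57037 reads and with 59.8% and 34.0% of all peaks at 0. In WT replicate 5, 14.0% of reads fell in a single peak of Gphn. Both belong to batch 2 of the labels, which holds 3 tumours of each genotype, as does batch 1. The 8 genes were thin there as well, with 87 and 223 reads in all, against 1310 to 11902 in each of the other 10 libraries. Values are given as normalised counts, which are the authors' counts divided by a library factor, or as reads per 1000000 reads in peaks (RPM), and results that rest on the WT group are given with and without these 2 libraries. The 8 genes were chosen with their peaks known, so the tissue was checked on the 5 other epithelial markers: Vil1, Cdx2 and Muc2, 3 of the 5, had a peak, and Cdx1 and Lgals4 had none, against 3 of 12 markers of fibroblasts and smooth muscle, 1 of 11 of leukocytes and 1 of 8 of endothelium and nerve. The summed epithelial markers, the 8 genes included, ran from 30726 to 41152 RPM in the 4 deeper WT libraries and from 18419 to 32086 RPM in G12D tumours, but were at 6534 and 9240 RPM in the shallow pair. That sum was led by Muc2, with means of 20019 RPM in WT replicates 1 to 4 and 11233 RPM in G12D tumours, and by Cldn4, with 6751 and 3038 RPM, while Vil1 (2297 and 2710 RPM) and Cdx2 (38.0 and 165 RPM) had the higher mean in G12D tumours. The fibroblast and muscle markers summed to 346 to 1786 RPM, 603 to 1702 RPM, and 131 and 491 RPM in the same order, with Acta2, Des, Myh11 and Pdgfrb without a peak. H2-Eb1, the only leukocyte marker with a peak, ran from 65.3 to 386 RPM in WT and from 130 to 258 RPM in G12D tumours, and Ptprc had none. Ret, the only marker of endothelium and nerve with a peak, ran from 0 to 130 and from 63.2 to 208 RPM. The part of these levels in the results below was not tested.

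Together the 8 genes took about 1 in 100 reads. Their share in G12D replicates 1 to 6 was 1.13%, 0.968%, 1.04%, 0.796%, 1.22% and 0.985%. In WT it was 1.71%, 1.41%, 1.00% and 1.48% in the 4 deeper libraries, replicates 1 to 4, and 0.284% and 0.391% in replicates 5 and 6. The Wilson 95% interval in WT replicate 5, the shallowest library, ran from 0.231% to 0.350%. Whether reads stand for separate molecules is unknown, so intervals cover counting error only. Without Cldn4, which took the largest part, the share was 0.723% ± 0.099 (SD, n = 4) in WT replicates 1 to 4 and 0.721% ± 0.130 (SD, n = 6) in G12D tumours. With Cldn4 the shares were 1.40% ± 0.294 and 1.02% ± 0.147.

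Levels between genes were compared per 100 bases of peak, over the 10 deeper libraries. Tspan8 was highest, at 3019 ± 1047 (SD, n = 10) RPM per 100 bases, followed by Krt8 at 1668 ± 557, Cldn4 at 1139 ± 613, Krt20 at 860 ± 260, Cldn7 at 743 ± 394, Krt19 at 521 ± 247, Epcam at 254 ± 128 and Cdh1 at 163 ± 61.0. The ranges of each pair of neighbours in this order overlapped, so only genes further apart, such as Tspan8 and Cdh1, were separated beyond their spread. These are levels of Ago2-bound RNA, and a high level can come from more of the message or from more binding, which were not told apart since the input libraries are not analysed here. In bulk tissue, fewer cells of a type and less RNA per cell cannot be told apart either.

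No gene of the 8 and none of their 29 peaks passed the main test between genotypes, which was made with limma. The fit on log2(normalised count + 1), with batch as a term and Benjamini-Hochberg adjustment over all features, called 0 of 3897 genes and 0 of 7527 peaks (0% of both), while 1665 genes (42.7%) had an unadjusted p under 0.05 in the direction of higher G12D values. Fits on recovered reads called 622 genes and 787 peaks with DESeq2 and 10 of each with edgeR, among them Krt8 alone of the 8 genes, with DESeq2. Of the 8 genes, 6 were among those with an unadjusted p under 0.05, and of their peaks 8 of 29, against 2700 of 7527 (35.9%). The log2 differences, G12D minus WT, were 1.56 ± 0.69 (SE) for Epcam, 1.08 ± 0.63 for Cdh1, 1.81 ± 0.85 for Cldn7, 0.53 ± 0.65 for Cldn4, 1.58 ± 0.55 for Krt8, 2.16 ± 0.81 for Krt19, 1.49 ± 0.58 for Krt20 and 2.00 ± 0.73 for Tspan8. The median of all genes was 1.37, and the median of the 8 was 1.57. Without WT replicates 5 and 6 the median of all genes was 0.44 and that of the 8 genes 0.40. The smallest adjusted p of the 8 genes was 0.0974 (limma). Without WT replicate 4, the deepest WT library, 6 of the 8 genes passed (all but Cdh1 and Cldn4), as did 56.2% of all genes, each with higher G12D values. In RPM and without WT replicates 5 and 6, 6 of the 29 peaks had lower G12D values with an unadjusted p under 0.05 (limma; 4.12% of all peaks), and none passed after adjustment. Relative to the median of all peaks, 14 of the 29 peaks were higher in G12D and 15 lower with 12 libraries, and 8 were higher without WT replicates 5 and 6.

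**Figure D1:**
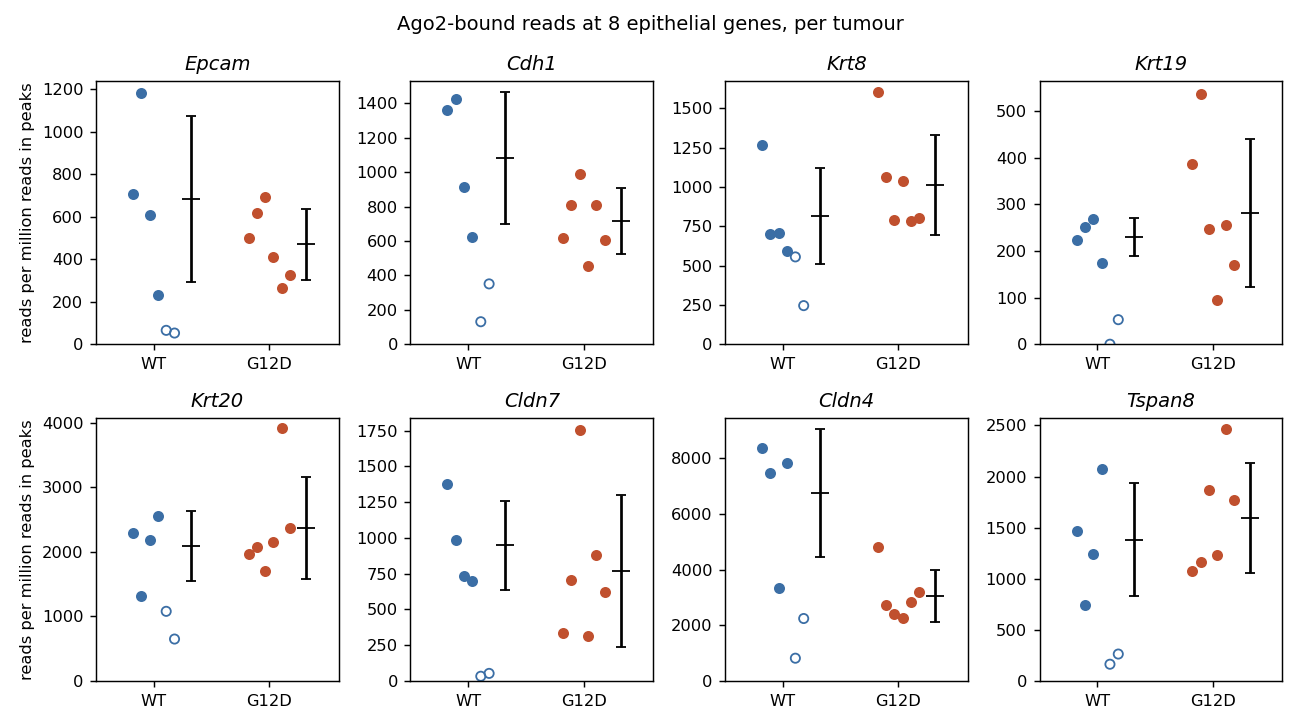
Reads per 1000000 reads in peaks (RPM, vertical axis, from 0) at each of the 8 genes, 1 point per tumour, by genotype; open circles are WT replicates 5 and 6, and the black mark and bar are mean and SD without them. Cldn4 is the gene with the largest difference in mean RPM, though the ranges overlapped. WT replicates 1 to 4 lay between 3342 and 8360 and G12D tumours between 2253 and 4821.

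**Figure D2:**
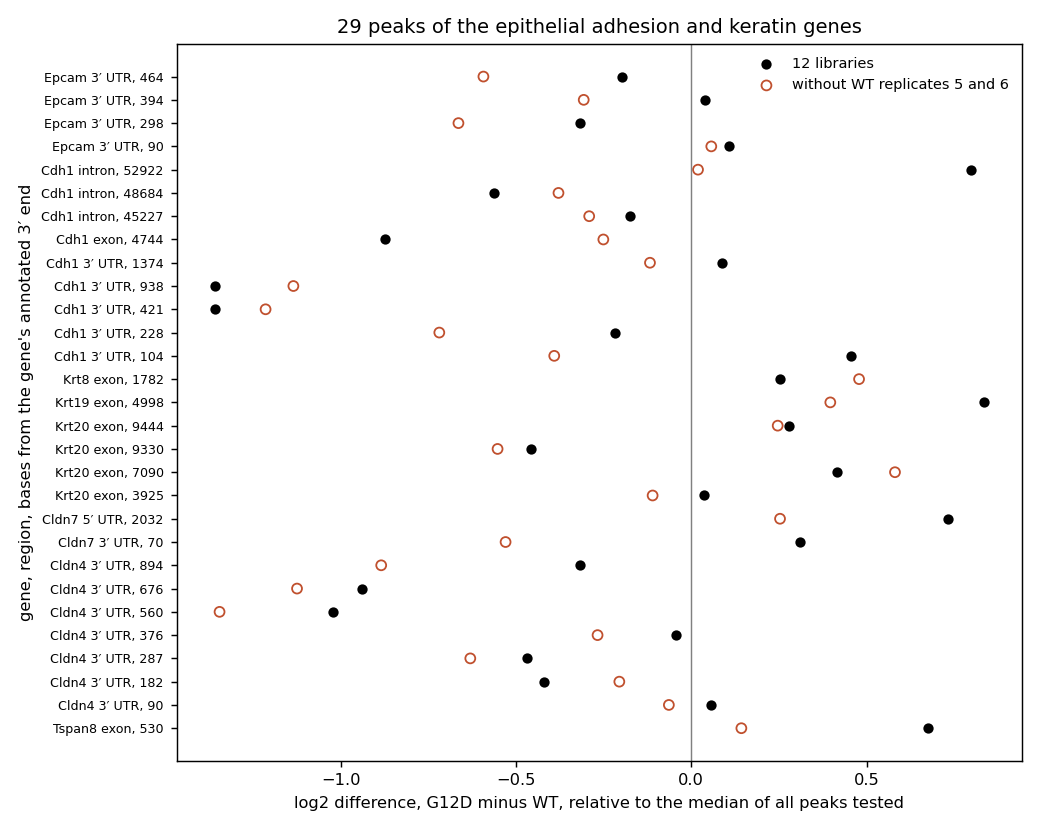
The log2 difference of each of the 29 peaks, G12D minus WT, less the median of all peaks tested (horizontal axis), with peaks listed by gene, region and distance in bases from the 3′ end of the gene. Filled points use 12 libraries and open points leave out WT replicates 5 and 6; the strongest Cldn4 peak, 560 bases from the end, lies at -1.02 and -1.35.

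Among the adhesion molecules, Epcam had all of its 4 peaks in the 3′ UTR, on chromosome 17. Its normalised counts were 125, 366, 170, 88.9, 9.06 and 7.23 in WT replicates 1 to 6 and ran from 134 through a median of 199 to 221 in G12D tumours. Every G12D value lay within the range of WT replicates 1 to 4, and 4 WT values, those of replicates 1, 4, 5 and 6, were below every G12D value. In RPM the log2 difference without WT replicates 5 and 6 was -0.11 ± 0.27 (SE; adjusted p = 0.942, limma). Its strongest peak (chr17:87651009-87651066, + strand, mm10) ended near the 3′ end of the message and had 178 ± 70.6 (SD, n = 4) RPM in WT replicates 1 to 4 and 195 ± 95.1 (SD, n = 6) in G12D tumours.

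Cdh1, the message of E-cadherin, carried 5 peaks in its 3′ UTR, 1 in an exon and 3 in introns, on chromosome 8. Its normalised counts were 241, 441, 256, 236, 18.1 and 48.2 in WT replicates 1 to 6 and 242 to 407, median 278, in G12D tumours. The G12D tumours and WT replicates 1 to 4 covered nearly the same range. In RPM the log2 difference without WT replicates 5 and 6 was -0.41 ± 0.25 (SE; adjusted p = 0.720, limma). The strongest peak (chr8:106670099-106670186, + strand), at the end of the 3′ UTR, holds the 7mer for miR-361-5p and had 426 ± 166 (SD, n = 4) RPM in WT replicates 1 to 4 and 304 ± 156 (SD, n = 6) in G12D tumours. A pair of weaker 3′ UTR peaks without a site, 421 and 938 bases from the end, lay far below the median of all peaks, at -1.36 each with 12 libraries and at -1.21 and -1.13 without WT replicates 5 and 6. The first of them had 140 ± 94.7 (SD, n = 4) RPM in WT replicates 1 to 4 and 43.6 ± 37.3 (SD, n = 6) in G12D tumours, with overlapping ranges, and neither passed the test. The intron peaks had 125 to 380 reads each over all 12 libraries; 1 holds the 7mer for miR-194-5p and another holds 7mers for the miR-19, miR-130/301 and miR-200a/b 5′ arm families.

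Cldn4, a claudin of tight junctions, had the most reads of the 8 genes, all in 7 peaks of its 3′ UTR on chromosome 5. Its levels in WT replicates 1 to 6 were 8360, 7473, 3342, 7830, 817 and 2244 RPM. G12D replicates 1 to 6 stood at 4821, 2722, 2401, 2253, 2851 and 3180 RPM. In 5 of 6 G12D tumours the value was below all of WT replicates 1 to 4 (true of 2.18% of all genes), while WT replicates 5 and 6 were lower than every G12D tumour. The sign of the log2 difference depended on those libraries and on the scaling and tool. In normalised counts it was 0.53 with them and -0.68 ± 0.33 (SE) without them by limma. With all 12 libraries it was -0.37 in RPM by limma, -0.082 by DESeq2 and by edgeR on the deposited scaling, -0.82 with DESeq2's own size factors and -0.79 with edgeR's TMM. In RPM without those libraries it was -1.11 ± 0.31 (SE), with an unadjusted p of 0.00336 in the limma fit and an adjusted p of 0.268, so it did not pass. In that fit 3.72% of all genes had an unadjusted p under 0.05 with lower G12D values. Relative to the median of all genes, Cldn4 was at -0.95 in batch 1 and -0.74 in batch 2. The differences themselves were -0.45 ± 0.49 (SE) in batch 1 and 1.52 ± 0.97 (SE) in batch 2, beside medians of 0.495 and 2.26. The WT libraries of batch 2 are replicate 4 and the shallow replicates 5 and 6, so the batch 2 value rests on a shifted median.

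The 7 Cldn4 peaks are given in turn. The strongest peak (chr5:134945653-134945712, - strand, 60 bases, 560 bases from the 3′ end) holds the 8mer for miR-31-5p printed above, a 7mer for miR-423-3p, and 6mers for the miR-218 and miR-183 families. By the authors' peak score it ranked 9 of 2186 in their WT list and 7 of 7569 in their G12D list. WT replicates 1 to 6 had 4843, 4451, 2036, 5015, 425 and 1034 RPM at it. G12D replicates 1 to 6 had 2667, 1513, 1196, 797, 1426 and 1493 RPM. All but the first G12D tumour were below WT replicates 1 to 4, as at 2.64% of all peaks. The log2 difference in RPM without WT replicates 5 and 6 was -1.39 ± 0.37 (SE; adjusted p = 0.326, limma). The next peak upstream, with only a 6mer for miR-27, gave -1.16 ± 0.40 (adjusted p = 0.495, limma), and here the ranges overlapped, since WT replicate 3 was at 423 and G12D tumours ran from 343 to 862. The peaks 894 and 287 bases from the 3′ end had 408 ± 181 and 331 ± 112 RPM (SD, n = 4) in WT replicates 1 to 4 and 193 ± 132 and 193 ± 83.3 (SD, n = 6) in G12D tumours, with overlapping ranges. The peaks at 376, 182 and 90 bases had means of 352, 229 and 89.8 in WT replicates 1 to 4 against 327, 198 and 67.5 in G12D tumours, differences smaller than the SD of either group. Of all Cldn4 reads, 57.9% to 64.1% were at the strongest peak in WT replicates 1 to 4 and 35.4% to 55.6% in G12D tumours. WT replicates 5 and 6 had 52.0% and 46.1%, within the G12D range. The fit of each peak against the rest of its gene, an analysis added after the data were seen, called neither this peak nor any other between genotypes (0 of 5157, and 398 at an unadjusted p under 0.05, by limma).

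**Figure D3:**
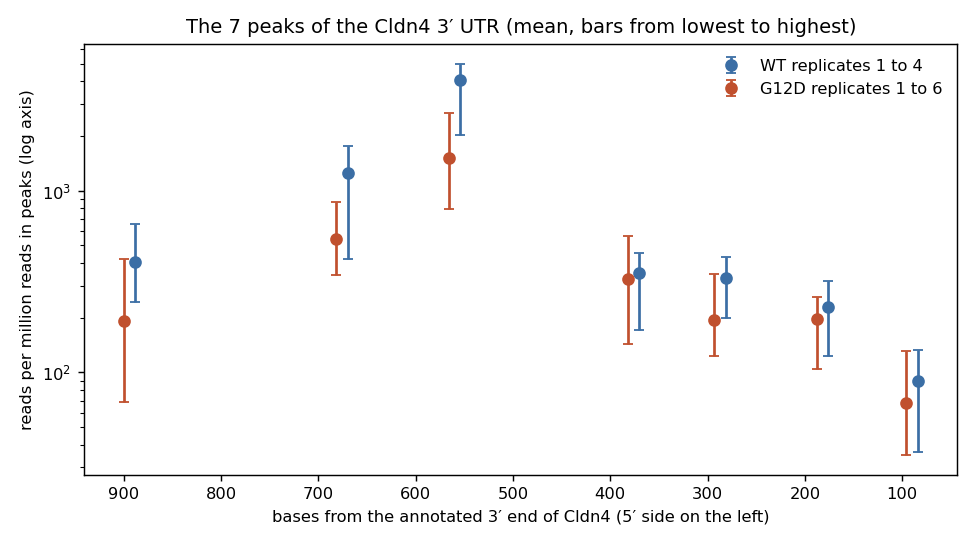
RPM at the 7 Cldn4 peaks (vertical, log axis) by distance in bases from the annotated 3′ end of the gene (horizontal), as mean with bars from the lowest to the highest tumour, for WT replicates 1 to 4 and the 6 G12D tumours. The difference in means is largest at the strongest peak, with 4086 in WT and 1515 in G12D, and is 89.8 against 67.5 at the peak nearest the 3′ end.

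The bound level of miR-31-5p was set beside this peak, since its seed site is the 8mer there. The mRNA and miRNA libraries were matched by genotype and replicate number, which was taken to mean the same tumour. miR-31-5p had 5397, 5973, 2425, 5584, 1444 and 7835 normalised counts in WT replicates 1 to 6. G12D replicates 1 to 6 had 5934, 3509, 1690, 1999, 1779 and 3166, a log2 difference of -0.61 ± 0.42 (SE; adjusted p = 0.489, limma) with overlapping groups. Across tumours, more bound miR-31-5p went with more reads at the Cldn4 peak: Pearson's r was 0.67 (permutation p = 0.0197) and Spearman's rho 0.57 (permutation p = 0.0566) over 12 tumours. Without WT replicates 5 and 6, which are also the 2 tumours farthest from the median miR-31-5p level, r was 0.86 (permutation p = 0.00317) and rho 0.83 (permutation p = 0.00464). Within batch 1 r was 0.84, within batch 2 0.57, and among the G12D tumours 0.81. After adjustment over 9781 pairs of a peak and a miRNA family, the p of r was 0.187 over 12 and 0.119 over 10 tumours and that of rho 0.335 and 0.177, so the relation did not pass. Of the 24 such pairs at the 8 genes none passed, and 78 of all pairs did over 12 tumours and 24 over 10. Over 10 tumours the other Cldn4 peaks gave r of 0.91, 0.78, 0.75, 0.52, 0.15 and 0.14 with miR-31-5p, though none of those holds a miR-31 site. The 26 peaks with a miR-31-5p 8mer had a median r of 0.60. That median was -0.023 for all 7527 peaks set against miR-31-5p and 0.005 for all pairs. Of the 26, 4 passed over 12 tumours and 0 over 10. High r was thus also found at Cldn4 peaks without the site.

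**Figure D4:**
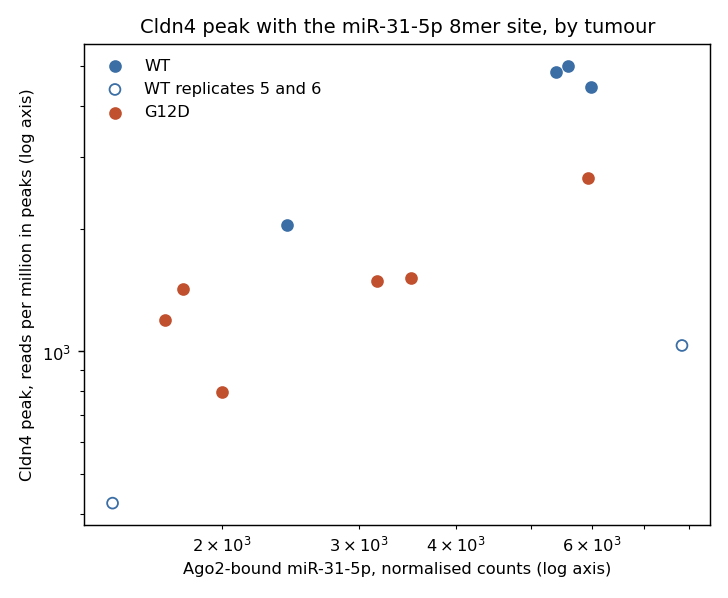
RPM at the Cldn4 peak with the miR-31-5p 8mer (vertical, log axis) against normalised counts of Ago2-bound miR-31-5p (horizontal, log axis). The miRNA library is that of the same genotype and replicate number, taken as the same tumour, with 1 point per tumour. Points run from low in both to high in both, apart from WT replicate 6 (open circle at the right), and r is 0.67 over 12 tumours and 0.86 over 10.

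Cldn7, the claudin that Epcam stabilises, had 1 peak at the end of its 3′ UTR and a weaker one in its 5′ UTR, on chromosome 11. Its normalised counts were 243, 305, 205, 266, 4.53 and 7.23 in WT replicates 1 to 6 and 130 to 509, median 263, in G12D tumours. The spread among G12D tumours was wider than that of WT replicates 1 to 4, and the groups overlapped. The log2 difference in RPM without WT replicates 5 and 6 was -0.39 ± 0.42 (SE; adjusted p = 0.869, limma). The 3′ UTR peak (chr11:69967789-69967843, + strand) holds the 7mer for miR-18a-3p and the 5′ UTR peak a 7mer for the miR-15/16 family.

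Of the keratins, Krt8 gave the clearest separation. This type II keratin of simple epithelia had 224, 216, 198, 225, 77.0 and 33.7 normalised counts in WT replicates 1 to 6. G12D replicates 1 to 6 had 628, 371, 229, 558, 392 and 358. Every G12D value was above every WT value (2.26% of all genes show this), but the lowest, 229, was close to the highest WT value, 225. The limma fit did not call it, with an adjusted p of 0.0974. DESeq2 on the recovered reads did, with a log2 difference of 1.44 ± 0.47 (SE; adjusted p = 0.0305), where 15.5% of the 3881 genes given an adjusted p were called higher. DESeq2 called it again without WT replicates 5 and 6 (adjusted p = 0.0297), where only 2910 genes were given an adjusted p and 8.83% of those were called higher. Krt8 did not pass with DESeq2's own size factors (0.38, adjusted p = 0.668), nor by edgeR on the deposited scaling (adjusted p = 0.168) or with TMM (0.41, adjusted p = 0.756). In the authors' deposited table the Krt8 peak had a log2 fold change of 1.44 and an adjusted p of 0.0407, with 9.92% of peaks called higher. It was the only 1 of the 29 peaks past 0.05 in that table. In the DESeq2 fit of peaks on recovered reads it had an adjusted p of 0.0405 (10.2% of peaks called higher), and 1.7% of all peaks have every G12D value above every WT value. In RPM the groups overlapped: Krt8 had 1267, 699, 707, 591, 555 and 245 in WT tumours and 781 to 1606, median 920, in G12D tumours, and the difference without WT replicates 5 and 6 was 0.42 ± 0.26 (SE; adjusted p = 0.724, limma). Its only peak (chr15:101998465-101998520, - strand, annotated as exon) has no annotated seed site.

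Krt19, a type I keratin of simple epithelia, had 1 exon peak (chr11:100145783-100145832, - strand) with the miR-7a-5p 7mer. Its normalised counts were 39.6, 77.7, 74.9, 66.2, 0 and 7.23 in WT replicates 1 to 6 and 51.3 to 188, median 102, in G12D tumours. The value in WT replicate 5 was 0 of 30607 reads, which allows up to 98.0 RPM. The groups overlapped, and the log2 difference in RPM without WT replicates 5 and 6 was 0.35 ± 0.31 (SE; adjusted p = 0.833, limma). Keratins are a gene family with close copies in the genome, and the handling of reads shared between copies was not given in the sources used here.

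Krt20, the keratin of mature surface cells of the gut, had 4 exon peaks on chromosome 11 and no 3′ UTR peak. Its normalised counts were 407, 405, 613, 972, 149 and 89.2 in WT replicates 1 to 6 and 495 to 1966, median 913, in G12D tumours, with overlap. In RPM the log2 difference without WT replicates 5 and 6 was 0.04 ± 0.25 (SE; adjusted p = 0.983, limma). The strongest peak (chr11:99437800-99437858, - strand) lies 324 bases from the 5′ end of the gene and holds the 8mer for miR-196-5p and the 7mer for miR-33-5p. Next to it, 438 bases from the 5′ end, a weaker peak holds the 8mer for miR-28/708 and a 7mer for miR-210-3p, and another, further 3′, holds 7mers for the miR-15/16, miR-103/107 and miR-22 families.

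Tspan8, a tetraspanin of the epithelial cell surface, had 1 exon peak on chromosome 10 (chr10:115849338-115849387, + strand), 530 bases from the 3′ end, with the miR-29-3p 8mer and the miR-34a-5p 7mer. Its normalised counts were 259, 229, 349, 789, 22.6 and 36.2 in WT replicates 1 to 6 and 406 to 1236, median 602, in G12D tumours. WT replicate 4 lay among the G12D values, and the other WT tumours below all of them. The difference without WT replicates 5 and 6 was 0.09 ± 0.29 (SE; adjusted p = 0.957, limma) in RPM.

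How the reads of a gene were spread over its peaks differed between the batches. In a limma fit of each peak against the rest of its gene, with batch and genotype as terms and chosen after the data were seen, 11 of 26 peaks of these genes with a partner peak differed between batch 2 and batch 1, 4 with a larger and 7 with a smaller share in batch 2, where 25.9% of all 5157 peaks tested were called. Without WT replicates 5 and 6, 10 of the 11 were called again (27.7% of all peaks). Epcam showed it most. In batch 1 its distal peak, 90 bases from the 3′ end, took 18.4% to 31.6% of the gene's counts, in 3 WT and 3 G12D tumours alike. In batch 2 it took 45.0% in WT replicate 4 and 85.3%, 55.8% and 79.7% in G12D replicates 4 to 6, and 100% in WT replicates 5 and 6, which had only 2 and 3 reads there. The batches did not overlap here, but the share of all peaks that separate in this way was not counted. The log2 ratio of this peak to the rest of Epcam was higher in batch 2 by 3.52 ± 0.63 (SE; adjusted p = 0.00278, limma), or by 2.71 ± 0.54 without WT replicates 5 and 6 (adjusted p = 0.00875, limma). The peaks 298 and 394 bases from the end fell by 1.94 ± 0.58 and 1.13 ± 0.39 on the same scale (adjusted p = 0.0242 and 0.0438, limma), the first with an adjusted p of 0.0579 without WT replicates 5 and 6. Shares within a gene are linked, since a larger share at 1 peak leaves less for the others. Calls at peaks of the same gene, here and below, are therefore not independent.

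In Krt20 the peak with the miR-28/708 8mer took 20.7% ± 6.90 (SD, n = 6) of the gene in batch 1 and 4.87% ± 2.14 (SD, n = 6) in batch 2, and its log2 ratio fell by 2.30 ± 0.44 (SE; adjusted p = 0.00366, limma). Its strongest peak rose from 62.2% ± 7.37 to 79.8% ± 2.84 (adjusted p = 0.0412, limma). In Cdh1 the intron peaks 52922 and 48684 bases from the 3′ end took larger shares in batch 2, by 1.62 ± 0.54 and 2.60 ± 0.66 on the log2 scale (adjusted p = 0.0394 and 0.0133, limma), and the 3′ UTR peak 938 bases from the end a smaller one. In Cldn4 the peaks furthest from and nearest to the 3′ end took smaller shares (-1.57 ± 0.45 and -1.04 ± 0.37), while the peak with the miR-31-5p site did not differ past the threshold (-0.43 ± 0.42, adjusted p = 0.453, limma). Of the 11 calls, 3 held under all 14 alternatives, the distal Epcam peak, the Krt20 peak with the miR-28/708 site and the Cdh1 intron peak 48684 bases from the end, and the other 8 were lost in at least 1. That Cdh1 peak had only 1 to 10 reads in each batch 1 library, so its difference rests on very few reads. The labels say only that the samples belong to batches 1 and 2, and what set the batches apart was not given in the sources used here.

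**Figure D5:**
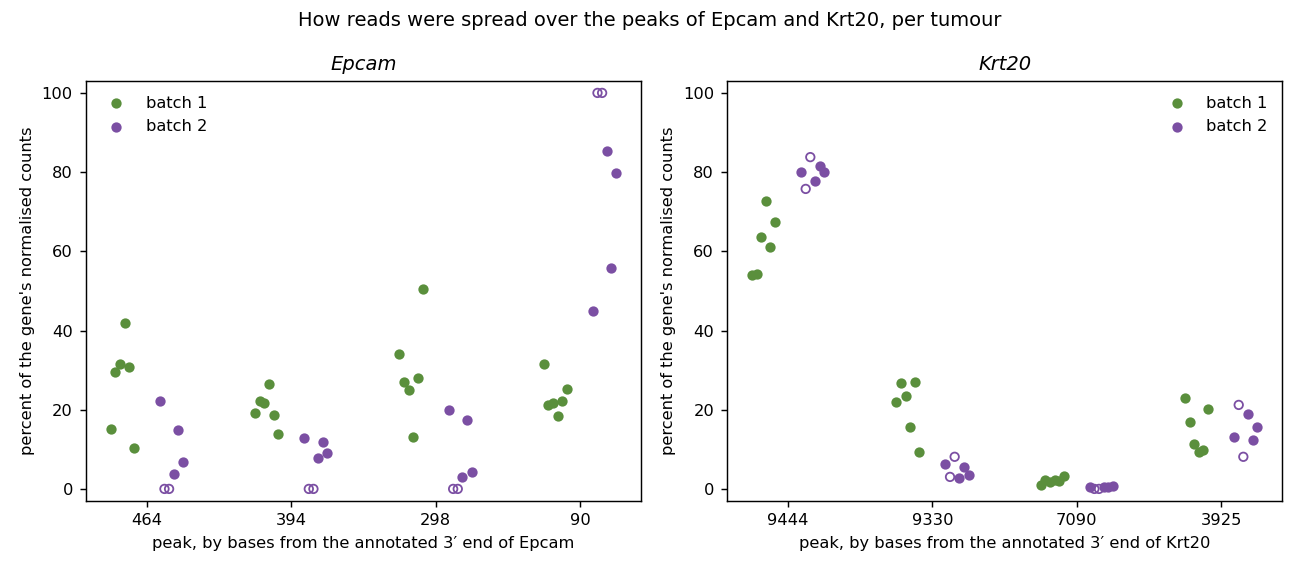
Percent of the normalised counts of Epcam (left) and Krt20 (right) at each of their 4 peaks (vertical axis), 1 point per tumour, with peaks ordered by distance in bases from the 3′ end of the gene and coloured by batch; open circles are WT replicates 5 and 6. The distal Epcam peak lies at 18.4% to 31.6% in batch 1 and at 45.0% to 100% in batch 2.

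Of the miRNAs whose families have an 8mer or 7mer in these peaks, miR-33-5p was the one called between genotypes when the most abundant member of each family was taken, and less abundant members were called too. It had 348 to 503 normalised counts in WT tumours, median 380, and 498 to 715, median 593, in G12D tumours, a log2 difference of 0.58 ± 0.12 (SE; adjusted p = 0.0165, limma), where 3.87% of all miRNAs tested were called. All G12D values except 1 were above all WT values. Without G12D replicate 6 its adjusted p was 0.0505 (limma). Its Krt20 site lies in the same peak as that of miR-196b-5p, which was at 11924 ± 1742 normalised counts in WT and 12474 ± 2111 in G12D tumours (SD, n = 6 each) and did not pass. miR-218-5p, whose family has only a 6mer in the strongest Cldn4 peak, also rose, from 144 to 190 in WT tumours to 201 to 441 in G12D tumours (log2 difference 0.93 ± 0.17 SE, adjusted p = 0.0112, limma). miR-449a-5p, a less abundant carrier of the miR-34a seed in the Tspan8 site, was lower in G12D tumours: it ran from 119 to 446 normalised counts in WT, median 213, and from 48.9 to 110, median 81.1, in G12D tumours. The groups did not overlap, and the log2 difference was -1.43 ± 0.28 (SE; adjusted p = 0.0158, limma; at most 0.0460 when 1 library was left out). The most abundant carrier of that seed, miR-34a-5p, was at 6561 ± 792 in WT and 6154 ± 1075 in G12D tumours (SD, n = 6 each) and did not pass. miR-99a-5p, whose family has a 6mer in the Cldn4 peak 376 bases from the 3′ end, ran from 82.2 to 450 in WT and from 44.5 to 78.0 in G12D tumours, also without overlap (log2 difference -1.84 ± 0.37 SE, adjusted p = 0.0163, limma). miR-193a-3p, with a 7mer in the Cldn4 peak at 182 bases, ran from 30.5 to 55.6 and from 34.6 to 187, with overlap. Its log2 difference of 1.27 ± 0.32 (SE) had an adjusted p of 0.0444 (limma), which did not pass in 10 of the 12 fits that left out 1 library, nor without WT replicates 5 and 6 (0.152). These 3 less abundant miRNAs were singled out after their values were seen. The share of all miRNAs whose groups do not overlap was not counted, so how unusual such a separation is cannot be said. miR-708-5p was uneven among tumours: it had 272, 382, 93.9, 737, 161 and 1707 normalised counts in WT replicates 1 to 6, while G12D replicates 1 to 6 had 280, 100, 35.6, 64.6, 62.6 and 62.4. Its log2 difference of -2.14 ± 0.66 (SE) had an adjusted p of 0.0865 in limma and 0.0242 in DESeq2, and the limma adjusted p passed 0.05 when G12D replicate 1, WT replicate 3 or WT replicate 5 was left out. The other abundant miRNAs of these sites, miR-194-5p, miR-19b-3p, miR-34a-5p and miR-210-3p, had log2 differences between -0.10 and 0.09.

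Partner genes were counted by list, with no list test. Of 11 adherens junction genes 8 had a peak and none was called by limma in either direction, with a median log2 difference of 1.38 beside 1.37 for all genes, and of 0.19 beside 0.03 in RPM without WT replicates 5 and 6. The beta-catenin gene Ctnnb1, the p120 catenin gene Ctnnd1 and the cadherin gene Cdh17 had the highest levels, and Ctnnd1 stood at 5718 RPM in WT replicate 5 against 662 ± 143 (SD, n = 4) in WT replicates 1 to 4. Of 16 tight junction genes 10 had a peak, with medians of 1.10 and -0.14 on the same 2 scales. Of 9 desmosome genes 5 had one, with 0.82 and -0.095, and of 9 genes of adhesion to the matrix 8, with 1.69 and 0.27. Of 11 tetraspanins and Epcam partners 7 had a peak, with medians of 1.27 and 0.11, and of 6 other keratins only Krt7, at 20.1 ± 15.6 (SD, n = 4) and 31.5 ± 33.7 (SD, n = 6) RPM. Krt18, the usual filament partner of Krt8, had no peak. A list of 12 genes joined repressors of epithelial genes, mesenchymal genes and TGF-beta signalling genes. Of these 3 had a peak, the repressor gene Zeb2 and the TGF-beta receptor genes Tgfbr1 and Tgfbr2, while Zeb1, Snai1, Vim and Cdh2 had none. No gene of these lists passed the limma test, and DESeq2 called 4 of the 42 tested, Jup, Cd44, Itga3 and Itgb4, higher in G12D, where 15.5% of all genes were called higher.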

How the data were processed

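Ago2-bound mRNA and miRNA libraries of 12 tumours were analysed from tables the authors deposited. The deposited signal values, for 7730 peaks and 596 miRNAs, are read counts the authors divided by a factor per library. Within 0.001 reads, 100% were whole multiples of 1 read, so reads were recovered: 30607 to 974013 per mRNA library and 289462 to 471587 per miRNA library. Column names of the peak table give model and number only, and the columns were read as the mRNA libraries. Input libraries are not analysed here. The deposited log2 fold changes and adjusted p-values are the authors' own, and the score in their peak lists, 1 list per genotype, was used only for rank. Per the submitters' processing notes the tools were STAR 2.5.2b and DESeq2 and the builds GRCm38 and mm10, with no role stated, and with the peak caller not given in the sources used here. Genes, regions and seed sites are the authors' annotation, and no genome was used.

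Values were summed over the peaks of a gene. The test was limma 3.58.1 (R 4.3.3, trend) on log2(value + 1) with batch as a term, for peaks and genes with a mean of at least 5 and miRNAs of at least 10, with Benjamini-Hochberg adjustment over all features at 0.05. The added 1 shrinks low values, and 10 was added to values in RPM. All 8 genes and 29 peaks passed the filter. DESeq2 1.42.0 and edgeR 4.0.16 on recovered reads were alternatives: on genes they called 622 and 10, on peaks 787 and 10. Scripts were tested on simulated data. Correlations used 100000 permutations.

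The genes, lists and most tests were chosen with earlier results of these data known. For each gene its strongest peak is described, of each list at most the 3 genes of highest level and those called, and of each seed family the most abundant miRNA (36 of 38 matched in RefSeq). The fit of a peak against the rest of its gene, the correlation with miRNAs, and the RPM and DESeq2 fits without WT replicates 5 and 6 were added after seeing the data.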

Additional observations from a re-analysis of the deposited data

Results flagged for a closer look

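In 7 of 60 groups of 6 tumours examined for the 8 genes and the miRNAs of their sites, 1 tumour lay far from the others by Dixon's criterion, which chance alone meets in about 1 of 20 groups. G12D replicate 1 was the tumour in 5 of them. It had 1606 RPM at Krt8, against 781 to 1061 in the other G12D tumours, and 4821 at Cldn4, against 2253 to 3180. Its miR-708-5p stood at 280 normalised counts, against 35.6 to 100, while its miR-194-5p was low at 11407, against 13345 to 14291, and its miR-361-5p low at 253, against 361 to 416. G12D replicate 5 had 3915 RPM at Krt20, against 1707 to 2367 in the others. G12D replicate 2 had 587 normalised counts of miR-423-3p, against 430 to 488. The effect of genotype on the 8 genes did not differ between the batches past the threshold (smallest adjusted p = 0.386 for the interaction in limma, where 1 of 3897 genes passed).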

How the results depend on the processing

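Depth limits WT replicates 5 and 6: 1 read is worth 4.53 normalised counts in WT replicate 5, and the 8 genes held 87 reads there. The number of peaks past the threshold between genotypes was 0 by limma, 787 by DESeq2, 171 by DESeq2 without WT replicates 5 and 6, 123 by DESeq2 with its own size factors, 12 by edgeR with TMM, 10 by edgeR with the deposited scaling, 258 in batch 2 alone, 513 with 5 added, 3 without WT replicates 5 and 6 and 9 in RPM without them; leaving out 1 library gave 0 to 3404, the highest without WT replicate 4. For genes the same settings gave 0, 622, 269, 85, 12, 10, 5, 381, 49 and 6, and leaving out 1 library 0 to 2199, again highest without WT replicate 4. For miRNAs the number was 11 by limma, 27 by DESeq2 and 5 to 16 when 1 library was left out. With the replicate block it was 6 for miRNAs, where miR-33-5p no longer passed (adjusted p = 0.0534, limma), and 0 for peaks and genes; the numbers were not taken to pair the tumours, since the deviations of same-numbered tumours correlated over 0.1 in 3 of 6 pairs for peaks and in 5 of 6 for miRNAs (0.07 in the other), with 1 and 3 WT libraries correlating best with their own number. For peaks against the rest of their gene between batches, it was 1335, and 780 (without WT replicate 3) to 1742 (without G12D replicate 3) when 1 library was left out.

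The gene difference changed sign for Cldn4 (0.53 by limma) to -0.082 with DESeq2 and with edgeR on the deposited scaling, -0.67 with DESeq2 without WT replicates 5 and 6, -0.82 with DESeq2's own factors, -0.79 with TMM, -0.45 in batch 1, -0.37 in RPM, -1.11 in RPM without WT replicates 5 and 6, -0.68 without those libraries and -0.031 without WT replicate 5 alone, the lowest of -0.031 to 1.01 when 1 library was left out. Cdh1 turned to -0.010, -0.23, -0.16, -0.15 and -0.41 with DESeq2 without those libraries, DESeq2's own factors, TMM, batch 1 alone and RPM without those libraries, where Epcam was at -0.11 and Cldn7 at -0.39. The cause was not tested. Among miRNAs near 0, miR-139-5p turned to 0.043 and 0.0028, miR-19b-3p to -0.067, -0.012, -0.034, -0.024 and -0.0043 with 1 library left out (range to 0.090), and without WT replicates 5 and 6 miR-194-5p to -0.0012, miR-200a-5p to 0.0061 and miR-423-3p to -0.12. Of the relative peak differences, 775 of 777 alternative values moved by less than the SD between replicates. That SD includes WT replicates 5 and 6, which lie far below the others at many of these peaks. It is thus a wide limit, and the count says little about stability. The exon peak of Cdh1 was at -0.18 in batch 1 and -1.63 in batch 2.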

Other observations

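The summed level of the 8 genes was most like that of Ctsb, the gene of the lysosomal protease cathepsin B, among 2617 other genes with a mean of at least 20. As a description over log2(RPM + 10), Pearson's r was 0.97 over the 12 mRNA libraries and 0.91 over the 10 deeper ones, beside medians over all these genes of 0.60 and 0.002. Mapk14, Hsp90ab1, Nipsnap1 and Impad1 came next over 12 libraries, with r of 0.96, 0.96, 0.96 and 0.96, and 0.78, 0.79, 0.74 and 0.74 over 10. Over the 10 deeper libraries the next were Plat, Thbs1, Laptm4a and Lpar6, with r of 0.90, 0.88, 0.88 and 0.86. The sum is not a profile shared by the 8 genes, and Cldn4 took the largest part of it. Their share of reads over the 10 deeper libraries was 1.17% ± 0.279 (SD, n = 10) with Cldn4 and 0.721% ± 0.113 without it. Over those 10 libraries r between pairs of the 8 genes ran from -0.82 (Epcam and Krt20) to 0.80 (Cdh1 and Cldn7). All the genes named here share the libraries and their depth with the 8 genes.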
